A study of Mus musculus with 6 samples.

Results

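The core circadian clock loop is the set of transcription factors and repressors that keep daily time in nearly every mouse cell, the hepatocyte included. The rows of the deposited gene table were searched for 10 symbols, Arntl, Clock, Npas2, Per1, Per2, Per3, Cry1, Cry2, Nr1d1 and Nr1d2, and each matched 1 of the 32212 rows. Their levels were compared between the livers of 3 WT mice and 3 CgA-KO mice, gene by gene, and set beside the hour at which each transcript is known to peak in mouse liver. All 6 mice were males of 2 yr on a C57BL/6 background, held under equal 12 hr spans of light and darkness on normal chow. Mice of the CgA-KO group lack chromogranin A, a secretory prohormone of endocrine and neuroendocrine cells encoded by Chga, and the WT mice carry the intact gene; the deleted exons are not given in the sources used here. Each library was made from the poly(A) RNA of about 30 mg of 1 liver. The labels do not say whether the mice were littermates, and p-values measure the spread between these 6 livers.

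BMAL1 (encoded by Arntl) pairs with CLOCK or with its relative NPAS2, binds E-boxes and drives the Per, Cry and Nr1d genes. The PER and CRY proteins return to the nucleus and hold that pair back, and the REV-ERB receptors encoded by Nr1d1 and Nr1d2 bind ROR elements and silence Arntl, Npas2 and Clock. In the liver of a mouse fed at night, Arntl and Npas2 peak around lights-on and Clock has a shallow rhythm of like timing. Nr1d1 peaks at midday, Nr1d2 in the afternoon, Per3 late in the afternoon, Per1 around lights-off and Per2 early in the night, while Cry1 peaks late in the night and Cry2 is nearly flat. Neither the labels nor the methods give the hour at which the livers were taken or whether the mice had fed. An effect of genotype and an effect of the hour of collection therefore cannot be told apart in these 6 livers.

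The promoters of 3 genes are shown because the loop acts on its own members through them and because their genes behaved differently here. Sequences are those of RefSeq, build GRCm38.p6, each 300 bases long (250 before to 50 after an annotated start), written 5′ to 3′ on the strand of the gene, with searched motifs in capitals. Arntl promoter 2 lies at chr7:113207261-113207560 (plus strand), Per3 at chr4:151044616-151044915 (minus strand) and Per1 promoter 1 at chr11:69098699-69098998 (plus strand).
Arntl promoter 2: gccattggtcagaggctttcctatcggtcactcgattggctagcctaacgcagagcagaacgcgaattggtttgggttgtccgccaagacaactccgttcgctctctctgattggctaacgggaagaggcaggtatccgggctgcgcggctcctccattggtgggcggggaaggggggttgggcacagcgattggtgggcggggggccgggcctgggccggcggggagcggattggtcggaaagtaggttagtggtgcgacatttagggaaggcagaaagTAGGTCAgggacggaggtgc
Per3 promoter 1: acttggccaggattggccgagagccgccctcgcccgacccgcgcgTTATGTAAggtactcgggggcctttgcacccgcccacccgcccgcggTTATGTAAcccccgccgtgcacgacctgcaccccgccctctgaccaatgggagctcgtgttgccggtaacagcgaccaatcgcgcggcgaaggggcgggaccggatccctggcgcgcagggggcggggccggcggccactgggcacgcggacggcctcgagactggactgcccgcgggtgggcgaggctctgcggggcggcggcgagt
Per1 promoter 1: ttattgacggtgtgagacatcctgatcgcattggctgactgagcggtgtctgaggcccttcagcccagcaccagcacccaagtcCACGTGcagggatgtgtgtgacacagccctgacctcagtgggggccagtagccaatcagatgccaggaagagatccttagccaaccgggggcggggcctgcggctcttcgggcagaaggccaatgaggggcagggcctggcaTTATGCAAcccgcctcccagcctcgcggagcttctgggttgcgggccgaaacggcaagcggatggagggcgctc
Capitals mark a ROR element at base 31 after the start in Arntl, D-boxes at 205 and 158 bases before the start in Per3, and an E-box at 166 and a D-box at 24 bases before the start in Per1. The motifs were searched on both strands, and none of them overlapped another in these 3 windows. Of the 32851 RefSeq promoters of this length, 7.15% held the E-box CACGTG, 4.68% the E-prime-box CACGTT, 6.45% a ROR element (TAGGTCA or TGGGTCA), 1.78% a D-box (TTATGCAA, TTATGTAA or TTACGTAA) and 1.79% the cAMP response element TGACGTCA. Promoters were matched for 9 of the 10 genes, 13 windows in all. Cry1 held an E-box 60 and an E-prime-box 79 bases before its start, Cry2 an E-prime-box at 166 and Nr1d1 an E-prime-box at 28. These letters did not occur in the windows of Clock, Npas2 and Nr1d2, in the other window of Arntl or in that of Per1. A match describes the letters of the window and is not a measurement of binding.

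Total counts ranged from 10558616 to 31087453 per library, lowest in WT replicate 1, and the counts of any pair of libraries within a genotype differed beyond sampling error (chi-square over its degrees of freedom 31.9 to 202), so each was kept as a separate sample. Levels are CPM, counts relative to the library total after TMM scaling (a trimmed mean of gene-wise ratios between libraries), whose factors ran from 0.756 to 1.12. A level of 3 counts, taken as the floor, corresponded to between 0.0951 and 0.269 CPM, and this floor covers counting error only. Chga had 0 counts in all 6 libraries, so the targeted gene cannot check the genotype labels in liver. Hepatocyte markers, of which 11 of 12 were in the table, summed to between 63943 and 104280 CPM in WT and between 55822 and 90542 CPM in CgA-KO livers. The 11 markers of Kupffer cells and macrophages summed to between 135 and 357 CPM in WT and to between 1473 and 2104 CPM in CgA-KO livers, and 10 of them were called higher. Markers of T, B and NK cells and neutrophils also stood apart, with 7 of 12 called higher and sums of 18.2 to 69.5 CPM in WT against 121 to 306 CPM in CgA-KO livers. Sinusoidal endothelial markers had similar sums, 144 to 179 against 155 to 209 CPM, with 1 of 8 called higher and 1 lower. Stellate and bile duct markers summed to 143 to 197 CPM in WT and to 262 to 410 CPM in CgA-KO livers, with 2 of 10 called higher. Over all genes tested, 8.6% were called higher and 3.84% lower by the test described below. No marker on these lists was at 0 in any library. In bulk liver, a change in the number of cells of a type and a change in RNA per cell cannot be told apart. When libraries were scaled to the hepatocyte markers instead, the log2 fold changes were 4.63 for Arntl, 4.56 for Npas2, −2.58 for Per2 and −3.04 for Per3, and edgeR called all 4.

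The genotypes were compared over 13867 genes with edgeR's quasi-likelihood test and Benjamini-Hochberg adjustment, and a gene was called at an adjusted p under 0.05. The test called 6 of the 10 clock genes, Arntl, Npas2 and Clock higher and Per2, Per3 and Nr1d2 lower in CgA-KO livers, where it called 12.4% of all genes tested (8.6% higher and 3.84% lower). Cry2 was not called although its libraries did not overlap, and Per1, Cry1 and Nr1d1 were not called and overlapped. DESeq2 called 6 of the 10 as well, against 17.2% of the 15083 genes it tested. The CPM of the genotypes did not overlap in 7 of the 10 genes, against 33.6% of all genes tested. The median absolute log2 fold change of the 10 genes was 1.09, against 0.37 over all genes tested, while their median signed value was −0.11 against −0.01. Arntl and Npas2 entered the test only through the CgA-KO livers. A gene needed 3 libraries above 0.436 CPM, which Arntl reached in 2 WT libraries and Npas2 in 0, so a difference was built into the passing of both.

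**Figure D1:**
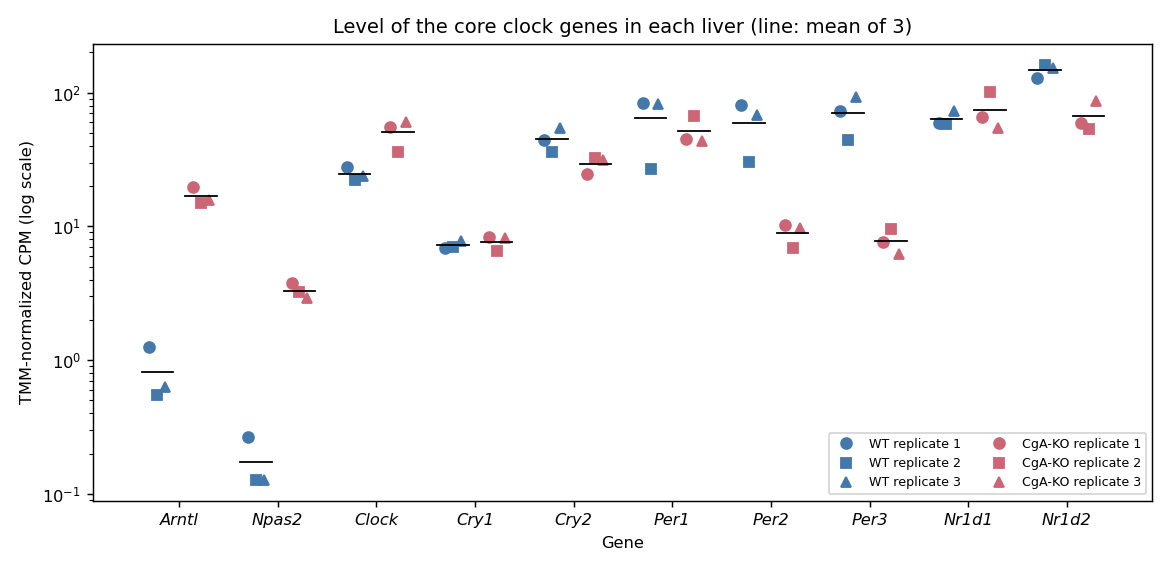
Level of each clock gene in TMM-normalized CPM (log axis) in the 3 WT (blue) and 3 CgA-KO livers (red), with the replicate number as the marker's shape and the mean of 3 as a line. Arntl and Npas2 lie far higher and Per2 and Per3 far lower in CgA-KO livers, while Per1, Cry1 and Nr1d1 of the 2 genotypes overlap.

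The activators Arntl, Npas2 and Clock were all higher in CgA-KO livers. Arntl (ENSMUSG00000055116.8, GRCm38 chromosome 7, 113207465 to 113314126) was at 1.25, 0.553 and 0.635 CPM in WT replicates 1, 2 and 3, from 14, 13 and 15 counts, and at 19.5, 15.0 and 15.7 CPM in CgA-KO replicates 1, 2 and 3, from 421, 474 and 351 counts. The lowest CgA-KO liver was 12.0 times the highest WT liver. Mean levels were 0.814 ± 0.383 and 16.8 ± 2.43 CPM (SD, n = 3 each), a log2 fold change of 4.44 (SE 0.34, edgeR adjusted p = 0.00164) or 21.8-fold higher. By p it was gene 2 of the 13867 tested. The 1246 pooled CgA-KO counts and the 42 in WT were each divided by the summed scaled library sizes of their group. The rate ratio was 22.9 with a 95% counting interval from 16.9 to 32.0, which leaves out the spread between livers. An antisense transcript, Gm45355, shares 33 bases of its exons with Arntl, 0.439% of the exonic length, and the strand setting of the quantification is not given in the sources used here.

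Npas2 (ENSMUSG00000026077.15, chromosome 1, 39193731 to 39363236), which can stand in for CLOCK as the partner of BMAL1, had 3 counts in each WT library and 81, 102 and 65 counts in CgA-KO replicates 1, 2 and 3. In CPM these were 0.269, 0.128 and 0.127 against 3.76, 3.23 and 2.91. All 3 WT livers were thus at the floor, and the CgA-KO livers lay close together. With 248 pooled CgA-KO counts against 9 in WT, the rate ratio after the same division by library sizes was 21.3. Its 95% counting interval, which also leaves out the spread between livers, ran from 11.04 to 47.1. The fitted log2 fold change was 4.32 (SE 0.47, edgeR adjusted p = 0.00296), a value that rests on only 3 counts in each WT library.

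Clock (ENSMUSG00000029238.11, chromosome 5, 76209868 to 76304792), the usual partner of BMAL1 and a histone acetyltransferase, was at 27.9, 22.3 and 23.9 CPM in WT and at 55.2, 36.2 and 59.8 CPM in CgA-KO livers. Every CgA-KO liver was above every WT liver, with CgA-KO replicate 2 the nearest to them. Means were 24.7 ± 2.84 and 50.4 ± 12.5 CPM (SD, n = 3 each), 2.04-fold higher with a log2 fold change of 1.03 (SE 0.22, edgeR adjusted p = 0.0196). This call was lost without WT replicate 2 (adjusted p = 0.0621 by edgeR), WT replicate 3 (0.0962), CgA-KO replicate 1 (0.0662) or CgA-KO replicate 3 (0.0539). Scaling to the hepatocyte markers also ended it, at a log2 fold change of 1.28 with an edgeR adjusted p of 0.0693.

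The PER genes parted. Per1 (ENSMUSG00000020893.17, chromosome 11, 69095217 to 69109960), which besides the E-box loop answers hormones and cAMP within an hour or so, was at 84.3, 26.8 and 81.9 CPM in WT and at 45.2, 67.1 and 43.4 CPM in CgA-KO livers. WT replicate 2 was the lowest of all 6 livers and the other 2 WT livers the highest, so the genotypes overlapped. Means were 64.3 ± 32.5 and 51.9 ± 13.2 CPM (SD, n = 3 each), and the log2 fold change of −0.31 (SE 0.40) missed the threshold (edgeR adjusted p = 0.655; exact permutation p = 0.8).

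Per2 (ENSMUSG00000055866.9, chromosome 1, 91415982 to 91459324), the PER protein whose stability helps to set the period of the loop, was at 81.1, 30.2 and 67.5 CPM in WT and at 10.3, 6.85 and 9.68 CPM in CgA-KO livers. WT replicate 2 was again the lowest of the WT livers, and it was still 2.93 times the highest CgA-KO liver. Means were 59.6 ± 26.4 and 8.95 ± 1.84 CPM (SD, n = 3 each), 6.66-fold lower in CgA-KO livers with a log2 fold change of −2.74 (SE 0.36, edgeR adjusted p = 0.00484).

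Per3 (ENSMUSG00000028957.12, chromosome 4, 151003652 to 151044665), a PER family member that is dispensable for the rhythm itself, was at 72.5, 44.3 and 93.2 CPM in WT and at 7.66, 9.58 and 6.23 CPM in CgA-KO livers. No CgA-KO liver came near the WT range, and the lowest WT liver was 4.63 times the highest CgA-KO liver. Means were 70.0 ± 24.5 and 7.82 ± 1.68 CPM (SD, n = 3 each), 8.92-fold lower with a log2 fold change of −3.16 (SE 0.30, edgeR adjusted p = 0.00247), gene 14 of 13867 by p.

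The cryptochromes are the stronger repressors of the BMAL1 pair, and neither was called. Cry1 (ENSMUSG00000020038.10, chromosome 10, 85131700 to 85185064) was at 6.90, 6.98 and 7.75 CPM in WT and at 8.31, 6.50 and 8.20 CPM in CgA-KO livers. The lowest level was that of a CgA-KO liver, and all 6 livers lay in a narrow range. Means were 7.21 ± 0.472 and 7.67 ± 1.01 CPM (SD, n = 3 each), with a log2 fold change of 0.09 (SE 0.22, edgeR adjusted p = 0.834; exact permutation p = 0.7).

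Cry2 (ENSMUSG00000068742.11, chromosome 2, 92403646 to 92434043) was at 44.4, 36.0 and 54.5 CPM in WT and at 24.6, 32.2 and 31.4 CPM in CgA-KO livers. The groups did not overlap, but the nearest livers, WT replicate 2 and CgA-KO replicate 2, were only 1.12-fold apart. Means were 45.0 ± 9.23 and 29.4 ± 4.18 CPM (SD, n = 3 each). The log2 fold change of −0.61 (SE 0.20) did not pass the test (edgeR adjusted p = 0.0837). The exact permutation p was 0.1, the smallest that 3 livers against 3 can give, and every called clock gene had the same value. The non-coding gene D930015M05Rik on the opposite strand shares 295 exonic bases with Cry2, 4.67% of its exonic length, and reads there cannot be told apart without a stated strand setting.

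The REV-ERB genes also parted. Nr1d1 (ENSMUSG00000020889.11, chromosome 11, 98767932 to 98775333), the main nuclear receptor that silences Arntl, was at 58.8, 58.5 and 73.4 CPM in WT and at 66.1, 100.3 and 54.4 CPM in CgA-KO livers. CgA-KO livers held both the highest level, in replicate 2, and the lowest, in replicate 3. Means were 63.6 ± 8.51 and 73.6 ± 23.9 CPM (SD, n = 3 each), with a log2 fold change of 0.21 (SE 0.25, edgeR adjusted p = 0.625; exact permutation p = 0.7) that became −0.04 without CgA-KO replicate 2. Exons of Thra on the opposite strand cover 263 bases of Nr1d1, 8.55% of its exonic length, and reads from that stretch cannot be told apart without a strand setting.

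Nr1d2 (ENSMUSG00000021775.11, chromosome 14, 18204054 to 18239127), the partner of Nr1d1 in that repression, was at 128, 161 and 152 CPM in WT and at 59.1, 53.5 and 86.3 CPM in CgA-KO livers. Each WT liver was above each CgA-KO liver, and CgA-KO replicate 3 came nearest. Means were 147 ± 17.4 and 66.3 ± 17.5 CPM (SD, n = 3 each), 2.22-fold lower with a log2 fold change of −1.15 (SE 0.23, edgeR adjusted p = 0.0167). The call was lost without WT replicate 3 (adjusted p = 0.0777 by edgeR), CgA-KO replicate 1 (0.0744) or CgA-KO replicate 2 (0.0558), and with scaling to the hepatocyte markers, where the log2 fold change was −0.85 (edgeR adjusted p = 0.192).

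**Figure D2:**
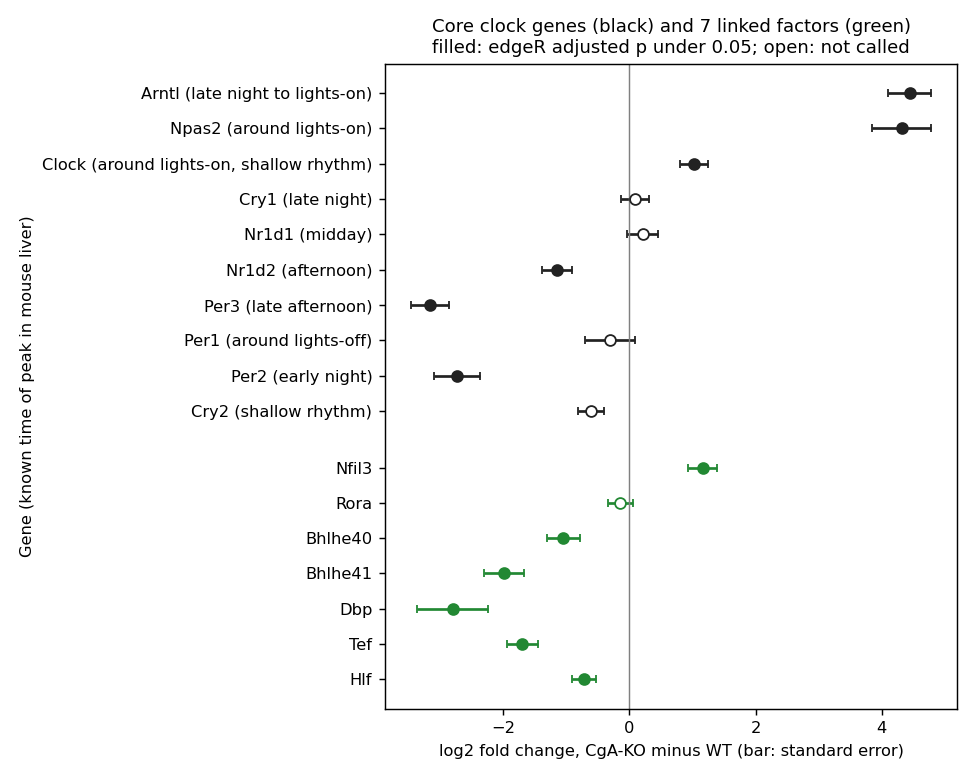
Log2 fold change of CgA-KO against WT (bar: standard error) for the 10 clock genes, each with its known hour of peak in mouse liver, and for 7 linked factors. Filled points passed edgeR's test, and the points run from 4.44 for Arntl to −3.16 for Per3.

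Set beside the known peak hours, the genes that were higher in CgA-KO livers, Arntl, Npas2 and Clock, are those of the hours around lights-on. The genes that were lower, Nr1d2, Per3 and Per2, are those of the hours from the afternoon to the early night. Per1, which peaks between Per3 and Per2, was not called at a log2 fold change of −0.31, and Nr1d1, which peaks shortly before Nr1d2, was not called at 0.21. Cry1, the repressor of the late night, had a value of 0.09 beside 4.44 for Arntl, its neighbour in peak hour. The called genes thus divided by peak hour, while Per1, Nr1d1 and Cry1 did not pass the test beside neighbours that did. Of the called genes, Clock kept its call in 9 and Nr1d2 in 10 of 14 alternative fits, and scaling to hepatocyte markers ended both calls.

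Pairs within a family were then compared as the ratio of their counts in the same library, which no scaling of the library can change. The 6 pairs were chosen after their values had been seen, so the ratios are descriptions beside exact two-sided permutation tests of log2 ratios, whose adjusted p over the 6 pairs was 0.12 for 5 of them and 0.3 for Per3 over Per2. Per2 counts per Per1 count were 0.962, 1.13 and 0.824 in WT and 0.228, 0.102 and 0.223 in CgA-KO livers. The ratio was thus 5.56-fold lower in CgA-KO livers with no overlap, a log2 difference of −2.47. Per3 counts per Per1 count were 0.861, 1.65 and 1.14 in WT and 0.170, 0.143 and 0.144 in CgA-KO livers, 7.75-fold lower. Per3 counts per Per2 count were 0.895, 1.47 and 1.38 against 0.743, 1.398 and 0.644, and these overlapped. Per2 and Per3 stood lower against Per1 within each CgA-KO library, whereas the ratio of Per3 to Per2 did not separate the genotypes.

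Nr1d2 counts per Nr1d1 count were 2.17, 2.76 and 2.08 in WT and 0.895, 0.534 and 1.59 in CgA-KO livers, 2.54-fold lower without overlap. Npas2 counts per Clock count were 0.00965, 0.00571 and 0.00531 in WT and 0.0682, 0.0894 and 0.0487 in CgA-KO livers. Clock exceeded Npas2 in every liver, and the ratio was 10.05-fold higher in the CgA-KO group with no overlap. Npas2 had 3 counts, the floor, in each WT library and passed the filter only through the CgA-KO livers. A difference was therefore built into this ratio. Cry1 counts per Cry2 count were 0.155, 0.194 and 0.142 in WT and 0.338, 0.202 and 0.261 in CgA-KO livers, 1.61-fold higher, with the nearest livers close to each other.

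Arntl and Nr1d1 peak at different known hours, around lights-on and at midday, and their ratio within a library was taken as a description with no test. Arntl counts per 100 Nr1d1 counts were 2.13, 0.945 and 0.866 in WT and 29.6, 15.0 and 28.9 in CgA-KO livers. On the log2 scale with a prior count of 2 the ratios were −5.45, −6.51 and −6.66 in WT and −1.75, −2.73 and −1.78 in CgA-KO livers, a difference of means of 4.12. CgA-KO replicate 2, the liver with the most Nr1d1, was the lowest of its group and still far above WT replicate 1, the highest of the other. Arntl, like Npas2, passed the filter only through the CgA-KO livers.

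**Figure D3:**
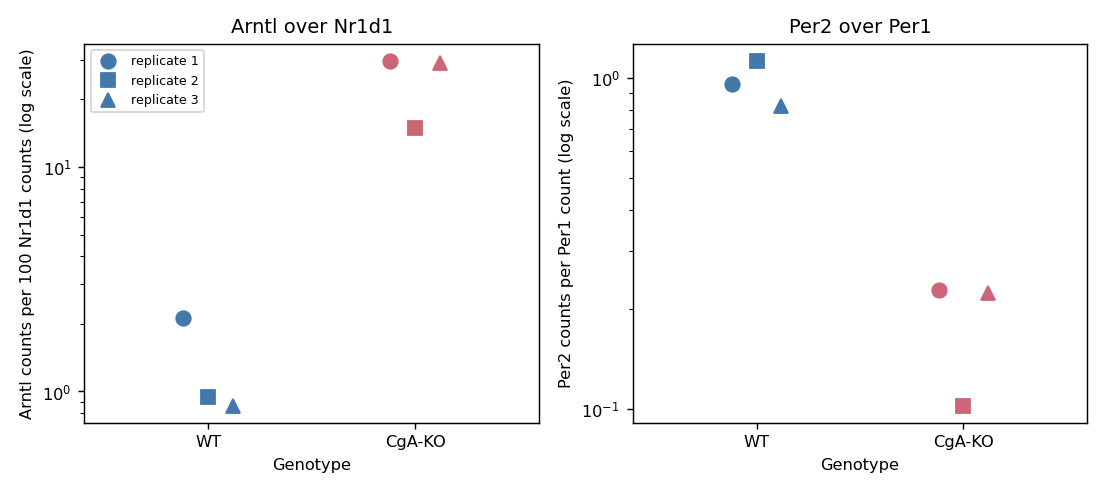
Left, Arntl counts per 100 Nr1d1 counts, and right, Per2 counts per Per1 count, in each library (log axes; blue WT, red CgA-KO, shape the replicate number). The left ratio is 15.0 to 29.6 in CgA-KO and 0.866 to 2.13 in WT livers, and the right one 0.102 to 0.228 and 0.824 to 1.13.

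Levels of different genes were ordered as mean CPM per kilobase of exon. In WT livers the order was Nr1d2 (27.2 ± 3.23), Nr1d1 (20.7 ± 2.76), Per1 (11.4 ± 5.77), Per2 (10.2 ± 4.50), Per3 (7.29 ± 2.55), Cry2 (7.12 ± 1.46), Cry1 (2.16 ± 0.141), Clock (1.80 ± 0.207), Arntl (0.108 ± 0.0509) and Npas2 (0.0364 ± 0.0170). The SDs (n = 3) of Per1, Per2, Per3 and Cry2 overlapped. These 4 neighbours were measured in the same livers, and the differences between them were not tested. In CgA-KO livers the order was Nr1d1 (23.9 ± 7.76), Nr1d2 (12.3 ± 3.24), Per1 (9.21 ± 2.35), Cry2 (4.65 ± 0.661), Clock (3.67 ± 0.912), Cry1 (2.30 ± 0.304), Arntl (2.23 ± 0.323), Per2 (1.53 ± 0.315), Per3 (0.814 ± 0.175) and Npas2 (0.689 ± 0.0892). There the SDs of Nr1d2 with Per1, Cry2 with Clock, Cry1 with Arntl and Per3 with Npas2 overlapped. In WT livers Per2 and Per3 stood far above Arntl per kilobase, and in CgA-KO livers Arntl stood above both.

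**Figure D4:**
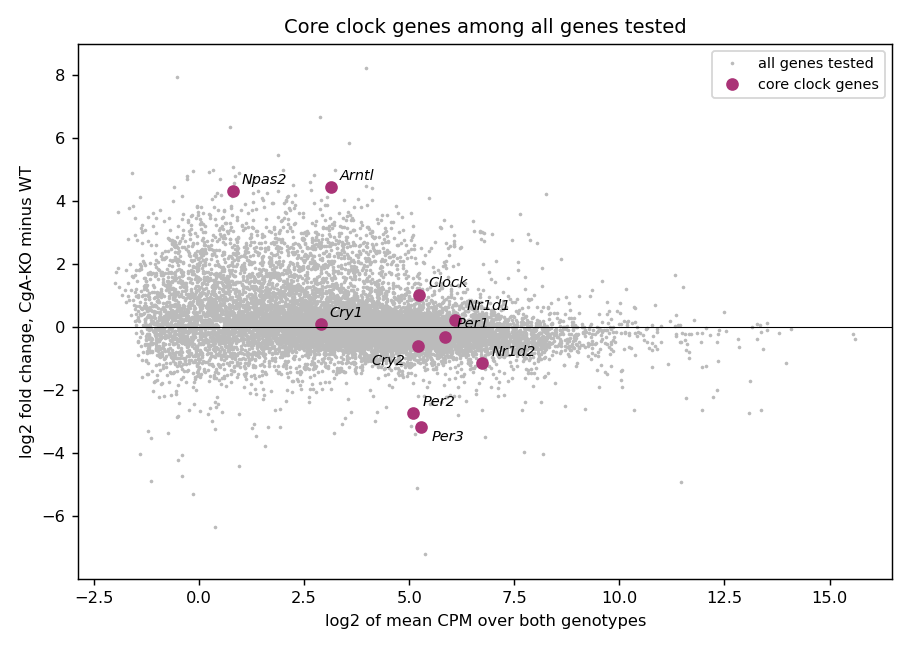
Log2 fold change against log2 mean CPM for the 13867 genes tested (grey) and the 10 clock genes (purple). Arntl and Npas2 lie at the upper edge and Per2 and Per3 at the lower edge of the genes of their level, and Cry1, Per1 and Nr1d1 lie within the bulk around 0.

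Further genes of the loop were taken from a list of 21 kinases, ubiquitin ligases, receptors and cofactors that act on the members, all of them tested. The test called 4 of them, all lower, where 12.4% of all genes were called and 3.84% were called lower. The list had a median log2 fold change of 0.05 over the list against −0.01 over all genes. Rora, a receptor that competes with the REV-ERBs for ROR elements, averaged 60.3 ± 12.4 CPM over the WT livers against 54.7 ± 4.49 over those of CgA-KO mice (SD, n = 3 each; log2 fold change −0.14, edgeR adjusted p = 0.681). The E-box repressors Bhlhe40 (DEC1) and Bhlhe41 (DEC2) were both lower, the first from 113 ± 23.4 to 54.8 ± 16.4 CPM (−1.05, adjusted p = 0.0338) and the other from 6.76 ± 0.675 to 1.70 ± 0.519 CPM (−1.98, adjusted p = 0.00778). Usp2, a deubiquitinase with a strong daily rhythm in liver, fell from 78.1 ± 13.6 to 14.7 ± 7.54 CPM (−2.40, adjusted p = 0.0055). The casein kinases, F-box proteins and corepressors of the list did not pass the test.

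Of 12 factors and targets that carry the loop's rhythm onward, all tested, 7 were called, 1 higher and 6 lower, where 8.6% of all genes were called higher and 3.84% lower. Their median log2 fold change was −0.70. Dbp, a D-box activator driven directly by BMAL1, was at 87.4, 135 and 155 CPM in WT and at 8.96, 36.7 and 8.29 CPM in CgA-KO livers. CgA-KO replicate 2 stood above its group, as it did for Nr1d1, and below every WT liver, and the log2 fold change was −2.80 (SE 0.57, edgeR adjusted p = 0.0165). The other D-box activators Tef (249 ± 57.6 to 76.7 ± 12.6 CPM, −1.70, adjusted p = 0.00581) and Hlf (73.7 ± 5.69 to 44.7 ± 8.57 CPM, −0.72, adjusted p = 0.0447) were lower as well. Nfil3 (E4BP4), the repressor that competes for the D-box, was higher, 10.5 ± 1.72 against 23.6 ± 5.34 CPM (1.16, adjusted p = 0.0153). Wee1, a cell cycle kinase with E-boxes in its promoter, fell from 19.4 ± 5.89 to 2.65 ± 0.303 CPM (−2.87, adjusted p = 0.00282), and Gys2, the liver glycogen synthase, from 201 ± 60.1 to 65.4 ± 13.0 CPM (−1.62, adjusted p = 0.00985). The count of 7 became 4 without WT replicate 2 and 3 without CgA-KO replicate 1.

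Because Per1 and Per2 also answer signals from outside the loop, 26 genes of glucocorticoid, immediate early and heat or cold responses were listed, of which 25 were tested. The test called 9 of them higher and 1 lower, against 8.6% and 3.84% of all genes. Among the glucocorticoid-responsive genes it called 3 of 8 higher (median log2 fold change 0.58), among immediate early genes 5 of 9 higher (median 1.70) and among heat and cold genes 1 of 8 in each direction (median −0.17). Not called on the glucocorticoid list were Fkbp5, Tsc22d3, Zbtb16, Tat and Errfi1. Egr1, an immediate early factor, rose from 4.43 ± 0.984 to 32.0 ± 2.46 CPM (2.86, edgeR adjusted p = 0.00164), Btg2 from 5.77 ± 2.10 to 30.5 ± 6.32 CPM (2.42, adjusted p = 0.00355) and Nr4a1 from 1.63 ± 0.994 to 7.75 ± 2.13 CPM (2.31, adjusted p = 0.014). Lcn2, an acute-phase gene of hepatocytes and neutrophils, rose from 11.1 ± 1.97 to 97.4 ± 48.8 CPM (3.13, adjusted p = 0.00484), and Sgk1, a hormone-induced kinase, from 14.1 ± 2.65 to 27.7 ± 1.63 CPM (0.98, adjusted p = 0.0145). Macrophage and leukocyte markers moved with the same comparison, and their part in these values was not tested. The count of 10 became 6 without WT replicate 1, 6 without WT replicate 2, 4 without WT replicate 3 and 5 without CgA-KO replicate 2.

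The genes whose log2 CPM followed Arntl most closely over the 6 libraries, among 8145 tested genes with a mean of at least 10 CPM, were Slc15a3 (Pearson r 0.996), Alyref (0.996), Treml4 (0.995), Vasp (0.995) and Ifi204 (0.993). For Nr1d1, among 8144 such genes, they were Hnrnpd (0.987), Eif3b (0.981), Phf2 (0.973), Dda1 (0.973) and Nectin1 (0.972). The points share library, scaling and genotype, so these values describe likeness over 6 libraries and nothing further.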

How the data were processed

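Liver poly(A) RNA had been sequenced as 1 library per mouse, 3 WT and 3 CgA-KO. The authors deposited 1 table of whole-number counts, 32212 rows named by gene symbol and not normalized. Per the labels and methods the reads were quantified per transcript with Salmon 1.4.0 on the GRCm38 transcriptome. The step from transcripts to genes and the strand setting are not given in the sources used here. All columns were mapped by their names, with 0 unmapped. Groups came from the sample titles.

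Tests on the deposited counts used edgeR 4.0.16 (R 4.3.3). Genes passing filterByExpr (minimum count 10) were scaled by TMM, fitted with robust quasi-likelihood dispersion and tested two-sided with p-values adjusted (Benjamini-Hochberg) over every gene tested. SEs of log2 fold changes are approximate, the absolute log2 value over the square root of its F statistic. Log2 CPM used a prior count of 2, and single genes also had an exact permutation test over the 6 libraries. The fits were also run on counts simulated from edgeR's own dispersions of these libraries, so that run cannot check the model itself. Alternatives were DESeq2 1.42.0, limma-voom (limma 3.58.1), other scalings and filters, a replicate block, a threshold of 0.01 and leaving out each library.

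The 10 clock genes and the lists were chosen with earlier results of these data known. From the other lists, the called genes with the 5 smallest p-values per list were named, plus Dbp, Tef, Hlf, Nfil3, Rora, Bhlhe40 and Bhlhe41, and the 5 genes most like Arntl and Nr1d1. One gene that the rule covers is not reported here. Gene positions and exon lengths are from the GENCODE annotation of GRCm38 and promoters from RefSeq. Plots used matplotlib 3.10.9 (Python 3.11.15).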

Additional observations from a re-analysis of the deposited data

How the results depend on the processing

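Arntl, Per2 and Per3 were called with the same direction under all 14 alternatives run for each, and Npas2 under all 13 that could test it. It could not be tested with at least 10 counts in every library. Their log2 fold changes ranged from 4.22 to 4.84 (Arntl), 4.13 to 4.68 (Npas2), −3.06 to −2.43 (Per2) and −3.40 to −2.90 (Per3). Clock was called under 9 and Nr1d2 under 10 of 14, and Per1, Cry1, Cry2 and Nr1d1 under none of the alternatives run. Nr1d1 was −0.0430 without CgA-KO replicate 2 and ranged from −0.0430 to 0.413 when 1 library was left out. The number of clock genes called, 6, ranged from 4 to 6. Scaling by library size alone moved the median over all genes (log2) from −0.01 to 0.26 and scaling to hepatocyte markers to 0.21, and the split of calls over all genes went from 1193 higher and 533 lower to 1293 and 200 with the first and to 811 and 110 with the other.

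The 1726 genes called became 2592 with DESeq2, 921 with scaling to hepatocyte markers, 360 at an adjusted p under 0.01 and 394 to 2126 when 1 library was left out (394 without WT replicate 3, 744 without CgA-KO replicate 1, 841 without WT replicate 2, 976 without CgA-KO replicate 2). Output factors called, 7, became 3 at an adjusted p under 0.01 and 3 to 7 with 1 library left out. Signal-responsive genes called, 10, became 3 at 0.01 and 4 to 10 with 1 library left out. The causes were not tested.

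Deviations of libraries with the same replicate number had correlations of 0.199, 0.0127 and −0.0659. With 3 livers per genotype these values cannot decide whether the numbers pair the mice. With a replicate block the test called 6 clock genes and 1498 genes in all, and CgA-KO replicate 3 deviated most like WT replicate 2 (0.234). The within-library ratios of family pairs, an alternative chosen after seeing the data, kept their direction when any 1 library was left out. Depth limits Npas2, at 3 counts in each WT library.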

Other observations

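The clock genes also varied among livers of one genotype. Per1 had a coefficient of variation of 50.5% over the 3 WT livers and 25.5% over the CgA-KO livers, and its highest WT level was 3.14 times its lowest. Per2 varied by 44.2% and 20.6% and Per3 by 35.0% and 21.5%. In all 3 PER genes WT replicate 2 was the lowest WT liver. Cry1 varied by 6.54% in WT, the least of the 10 genes there, and by 13.2% in CgA-KO livers. Nr1d1 and Nr1d2 varied less in WT (13.4% and 11.9%) than in CgA-KO livers (32.4% and 26.4%), and Clock likewise (11.5% and 24.9%). These spreads rest on 3 livers each, and the differences between them were not tested.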
